A study of Mus musculus with 12 samples.

Results

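The bone morphogenetic protein (BMP) and transforming growth factor-beta (TGF-beta) pathway was followed here through 55 named genes of the 32288 genes and transgenes counted by bulk RNA-seq in mouse *Osx*+ metaphyseal osteoblasts. The list was drawn up by gene name and falls into 8 roles: 10 BMP and GDF ligands, 5 TGF-beta and activin ligands, 11 receptors, 6 receptor-regulated and common SMADs, 8 cell-autonomous inhibitors, the 4 *Id* genes, 8 extracellular antagonists and modulators, and 3 latent TGF-beta binding proteins. All mice carried *Osx-CreERT2* and the *mTmG* reporter, in which tamoxifen switches cells that express *Osx* (also called *Sp7*) from tdTomato to membrane GFP (mGFP). Metaphyseal mGFP+ cells were sorted after depletion of CD45+, CD31+ and Ter119+ cells. The juvenile group (3 weeks, 4 libraries) and the adult group (8 weeks, 4 libraries) carried no further allele, and each of their libraries pooled 2 male mice, collected 2 days after 3 daily doses of tamoxifen. *c-Myc*-induced osteoblasts (2 libraries) also carried *LSL-tTA* and *Col1a1::TetO-c-Myc*, so that Cre activity starts expression of a *c-Myc* transgene, and *c-Myc* + *R172H* osteoblasts (2 libraries) had in addition a Cre-activated *Trp53* allele with the dominant-negative *R172H* change. Both induced groups are titled 3 weeks, but the dissection text calls those mice 5 weeks old. They were collected 7 days after 2 daily doses of tamoxifen, and mice of both sexes were allowed. Their shaft was cut about 5 mm from the growth plate, in place of about 2 mm in the juvenile and adult groups. To keep the transgene silent beforehand, mice with this system, or pregnant females, drank doxycycline or tetracycline until a set time before analysis. Antibiotic, schedule, trimming and stated age therefore cannot be told apart from *c-Myc* in any comparison of an induced group with the juvenile group. *Osx* is also active in hypertrophic chondrocytes, so the reporter marks osteoblast-lineage cells without being restricted to mature osteoblasts.

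In this pathway, secreted dimeric ligands bring together type I and type II serine/threonine kinase receptors at the cell surface. The type I receptor phosphorylates a receptor-regulated SMAD, *Smad1*, *Smad5* and *Smad9* on the BMP side and *Smad2* and *Smad3* on the TGF-beta and activin side, which enters the nucleus with *Smad4*. The pathway is restrained outside the cell by proteins that trap ligand, and inside it by inhibitory SMADs, ubiquitin ligases and co-repressors. In bone, BMPs are known for driving osteoblast differentiation, while latent TGF-beta is laid down in the matrix and released when bone is remodelled. The *Id* genes, which encode inhibitors of basic helix-loop-helix transcription factors, are classical immediate targets of BMP signalling. RNA levels do not measure phosphorylated SMADs or secreted ligand.

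Each library held 9066154 to 15684412 counted reads. *Myc* was at 39.8 to 52.2 CPM (a gene's reads relative to all counted reads, scaled with TMM factors) in the 8 control libraries and at 624 to 747 CPM in the 4 induced libraries. *Xist*, transcribed in female cells, stood at 233 CPM in *c-Myc* 2, at 211 CPM in *c-Myc* + *R172H* 2 and at most at 1.24 CPM in the other 10 libraries. Against juvenile osteoblasts, the median log2 fold change of the pathway genes in *c-Myc* was -0.97, and that of all genes 0.037. Without *c-Myc* 2 these medians were -1.11 and 0.0093. In *c-Myc* + *R172H* they were -1.03 and 0.076, and without *c-Myc* + *R172H* 2 they were -1.03 and 0.025. All 12 osteoblast markers on the list were detected in every group. Their summed level was 571632 to 840378 CPM in juvenile, 343384 to 619060 in adult, 99956 to 132380 in *c-Myc* and 56454 to 58406 in *c-Myc* + *R172H* libraries. *Col1a1* and *Col1a2* made up most of these sums, with juvenile means of 485084 and 223715 CPM. The 16 chondrocyte markers were also detected in every group, with sums of 18847 to 37059, 45025 to 143201, 1893 to 2130 and 884 to 1052 CPM in the same order. The sum of 12 hematopoietic markers was at most 31.5 CPM and that of 7 endothelial markers at most 9.82 CPM, both highest in the induced groups, with *S100a8* at 0 in all groups and *Ptprc*, *Pecam1* and *Cdh5* at 0 in the juvenile group. In bulk samples, fewer cells of a type and less RNA per cell cannot be told apart.

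Per kilobase of exon, which allows levels of different genes to be compared, *Id3* was the highest of the 55 genes in every group, at a mean of 123 CPM per kb in juvenile, 97.2 in adult, 43.3 in *c-Myc* and 33.5 in *c-Myc* + *R172H* osteoblasts. In juvenile osteoblasts the next were the ligand *Tgfb1* (38.6 CPM per kb) and the secreted glycoprotein *Fstl1* (36.4), whose library ranges overlapped on the CPM scale (186 to 211 CPM and 162 to 194 CPM). *Bmp3* (24.7), which encodes a BMP family member that counteracts osteogenic BMPs, and the decoy receptor *Bambi* (24.5) followed. *Smad4* (19.0), *Ltbp3* (18.8) and the co-repressor *Ski* (17.7) came after them. *Fstl1* moved ahead of *Tgfb1* in adult osteoblasts (41.7 against 26.2 CPM per kb). *Bmpr1b* had no read in any library and *Gdf6* reached at most 0.745 CPM. These 2 did not pass the filter on low counts, so 53 of the 55 genes were tested in each comparison. In the annotation of the same build as the files (GRCm38, mm10), *Id3* (ENSMUSG00000007872) at chr4:136143497-136145755 on the plus strand, *Bmp3* (ENSMUSG00000029335) at chr5:98854415-98884396 on the plus strand, *Tgfb1* (ENSMUSG00000002603) at chr7:25687002-25705077 on the plus strand and *Chrdl1* (ENSMUSG00000031283) at chrX:143285674-143394262 on the minus strand are protein-coding genes. *Gdf5* passed in the induced comparisons only through the juvenile libraries. Its lower calls there carry no weight as a test, although the counts and shares below include them.

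The juvenile and adult groups ask how metaphyseal osteoblasts differ between rapid early growth and early adulthood. Of the 53 tested genes, 4 were higher in juvenile osteoblasts (*Tgfb1*, *Smad1*, *Smad3* and *Tgif1*) and 6 were lower (*Gdf10*, *Tgfb2*, *Tgfbr2*, *Acvr1b*, *Id1* and *Ltbp2*) at an adjusted p below 0.05 by edgeR's quasi-likelihood test. This was 18.9% of the pathway genes, beside 5.12% of all 11345 genes tested. By direction, 7.55% of the pathway genes were called higher beside 1.89% of all genes, and 11.3% were called lower beside 3.23%. The median log2 fold change of the pathway genes was -0.066, and that of all genes 0.00093. With scaling by library totals alone, the split of called pathway genes became 1 higher and 11 lower (22.6% beside 7.46% of all genes), the median of all genes being -0.24 under that scaling.

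Of these 10 calls, 5 were kept without juvenile 1, 3 without juvenile 2, 6 without juvenile 3, 5 without juvenile 4, 4 without adult 1, 8 without adult 2, 8 without adult 3 and 4 without adult 4. Calls over all genes changed too, from 5.12% with all libraries to 2.65%, 2.45%, 3.83% and 2.86% without juvenile 1 to 4. Without adult 1 to 4, 2.88%, 7.64%, 4.04% and 2.57% of all genes were called. The fold changes often moved little as calls were lost, as for *Tgfb1*, at a log2 fold change of 0.55 with all libraries and 0.56 without juvenile 2. *Gdf10*, *Smad1* and *Ltbp2* kept their call in all 17 alternatives run. *Tgif1* kept it in 6 of 17, and lost it whichever library was left out (adjusted p = 0.0584 to 0.13) and with library totals (log2 fold change 0.59, adjusted p = 0.206).

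Among the ligands, *Gdf10* (also known as BMP3B) stood at 15.2, 14.9, 8.34 and 8.44 CPM in juvenile 1 to 4 and at 40.7, 31.3, 41.0 and 33.4 CPM in adult 1 to 4. The groups did not overlap, and *Gdf10* was 3.11-fold lower in juvenile osteoblasts (log2 fold change -1.64 ± 0.21 SE, adjusted p = 5.72e-04). *Tgfb1*, the main TGF-beta stored in bone matrix, was at 188, 194, 211 and 186 CPM in juvenile and 107, 143, 153 and 126 CPM in adult libraries. Every juvenile library lay above every adult one (1.46-fold, adjusted p = 0.0166), although the gene was not called without juvenile 2, juvenile 3 or adult 4 (adjusted p = 0.0504 to 0.0519) or with library totals (log2 fold change 0.31 in place of 0.55, adjusted p = 0.191). *Tgfb2* went the other way, with 12.8, 16.8, 19.2 and 16.9 CPM in juvenile and 38.6, 22.3, 22.0 and 32.3 CPM in adult libraries (1.77-fold lower in juvenile, adjusted p = 0.0305). Adult 1 and adult 4 were the high libraries for *Tgfb2*, and without juvenile 1, 2 or 4 or adult 1 or 4 the gene was no longer called (adjusted p = 0.0649 to 0.118). The activin subunit gene *Inhba* averaged 6.48 ± 3.36 CPM (SD, n = 4) in juvenile and 13.2 ± 4.82 CPM (SD, n = 4) in adult libraries, with overlapping ranges (adjusted p = 0.0938). The osteogenic ligands *Bmp2*, *Bmp4*, *Bmp6* and *Bmp7* were not called, and their library ranges overlapped.

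Of the receptors, *Tgfbr2*, the type II receptor for TGF-beta, was at 47.5, 52.9, 54.6 and 62.6 CPM in juvenile and 89.5, 70.4, 80.7 and 72.5 CPM in adult libraries. The groups did not overlap (1.45-fold lower in juvenile, adjusted p = 0.024), and the call ended without juvenile 1 or 2 or adult 1 or 3 (adjusted p = 0.0525 to 0.0873). *Acvr1b*, an activin type I receptor, was at 7.49, 6.29, 2.64 and 3.97 CPM in juvenile and between 7.11 and 17.4 CPM in adult libraries. Juvenile 1 lay above adult 3, so these ranges overlapped (2.42-fold lower, adjusted p = 0.0377), and the call ended without juvenile 2, 3 or 4 or adult 1, 2 or 4 (adjusted p = 0.0679 to 0.0957). The co-receptor *Tgfbr3* (20.2 to 40.9 CPM in juvenile, 43.4 to 71.5 CPM in adult) did not overlap either but missed the threshold (adjusted p = 0.0581). The BMP receptors *Bmpr1a*, *Bmpr2* and *Acvr1* were not called.

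Of the transducers, *Smad1* on the BMP side and *Smad3* on the TGF-beta side were higher in juvenile osteoblasts. *Smad1* stood at 37.7, 39.1, 38.9 and 63.4 CPM in juvenile and 25.6, 28.5, 21.7 and 21.6 CPM in adult libraries (1.83-fold, log2 fold change 0.87 ± 0.18 SE, adjusted p = 0.0117). *Smad3* was at 81.4, 83.1, 80.3 and 91.5 CPM in juvenile and 46.9, 61.3, 70.7 and 49.1 CPM in adult libraries (1.47-fold, adjusted p = 0.0264). All juvenile libraries were above all adult ones for both genes, and juvenile 4 was the highest for both. The *Smad3* call ended without juvenile 1, 2 or 4 or adult 1 or 4 (adjusted p = 0.0595 to 0.088) and with library totals (log2 fold change 0.32 in place of 0.56, adjusted p = 0.204). *Smad2*, *Smad4*, *Smad5* and *Smad9* were not called. Among the inhibitors, *Tgif1*, a homeodomain co-repressor of SMAD complexes, was at 14.8, 10.2, 16.1 and 12.3 CPM in juvenile and 7.69, 7.33, 6.47 and 8.1 CPM in adult libraries (1.79-fold, adjusted p = 0.0486, lost as given above).

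*Id1* was at 11.2, 10.5, 8.9 and 7.7 CPM in juvenile and at 35.0, 11.4, 17.7 and 19.4 CPM in adult libraries (2.19-fold lower in juvenile, adjusted p = 0.03). Adult 1 stood well above the other adult libraries, and without it the log2 fold change went from -1.13 to -0.75 (adjusted p = 0.13). The call also ended without any 1 juvenile library or adult 4 (adjusted p = 0.0607 to 0.0876). *Id2* (6.48 to 15.1 CPM against 13.1 to 23.8 CPM), *Id3* (176 to 242 CPM against 157 to 196 CPM) and *Id4* (6.39 to 9.86 CPM against 4.78 to 10.9 CPM) were not called. *Ltbp2*, which encodes a microfibril-associated relative of the latent TGF-beta carriers, was at 11.2, 10.0, 6.95 and 13.8 CPM in juvenile and 35.4, 35.9, 32.2 and 23.1 CPM in adult libraries (3.02-fold lower, log2 fold change -1.59 ± 0.22 SE, adjusted p = 7.04e-04), with no overlap. *Ltbp3* and *Ltbp4* were not called.

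None of the 8 extracellular antagonists was called by edgeR in this comparison, beside 5.12% of all genes. The most abundant of them, *Fstl1*, was at 176, 184, 162 and 194 CPM in juvenile and 180, 246, 208 and 185 CPM in adult libraries. *Chrdl1*, a chordin-like BMP antagonist, was at 5.39, 10.2, 7.92 and 5.34 CPM in juvenile and 60.7, 13.7, 16.7 and 13.3 CPM in adult libraries, a difference that did not pass (adjusted p = 0.109). Adult 1 held the highest *Chrdl1* level and also the highest chondrocyte marker sum, 143201 CPM beside 45025, 67734 and 88268 CPM in adult 2, 3 and 4. *Id1*, *Id2* and the BMP antagonist *Nog* (22.0, 3.16, 9.44 and 15.0 CPM) ranked the 4 adult libraries in the same order as that sum. *Bmp3*, *Bambi* and *Ltbp3*, among others, ranked them in the reverse order. With 4 libraries such orders are a description and not a test. Of the 16 chondrocyte markers, 15 had a lower estimate in juvenile osteoblasts and 1 of them was called, beside 3.23% of all genes. Of 12 osteoblast markers, 4 were called higher there, beside 1.89% of all genes. The part of the chondrocyte and osteoblast markers in the pathway differences was not tested.

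**Figure D1:**
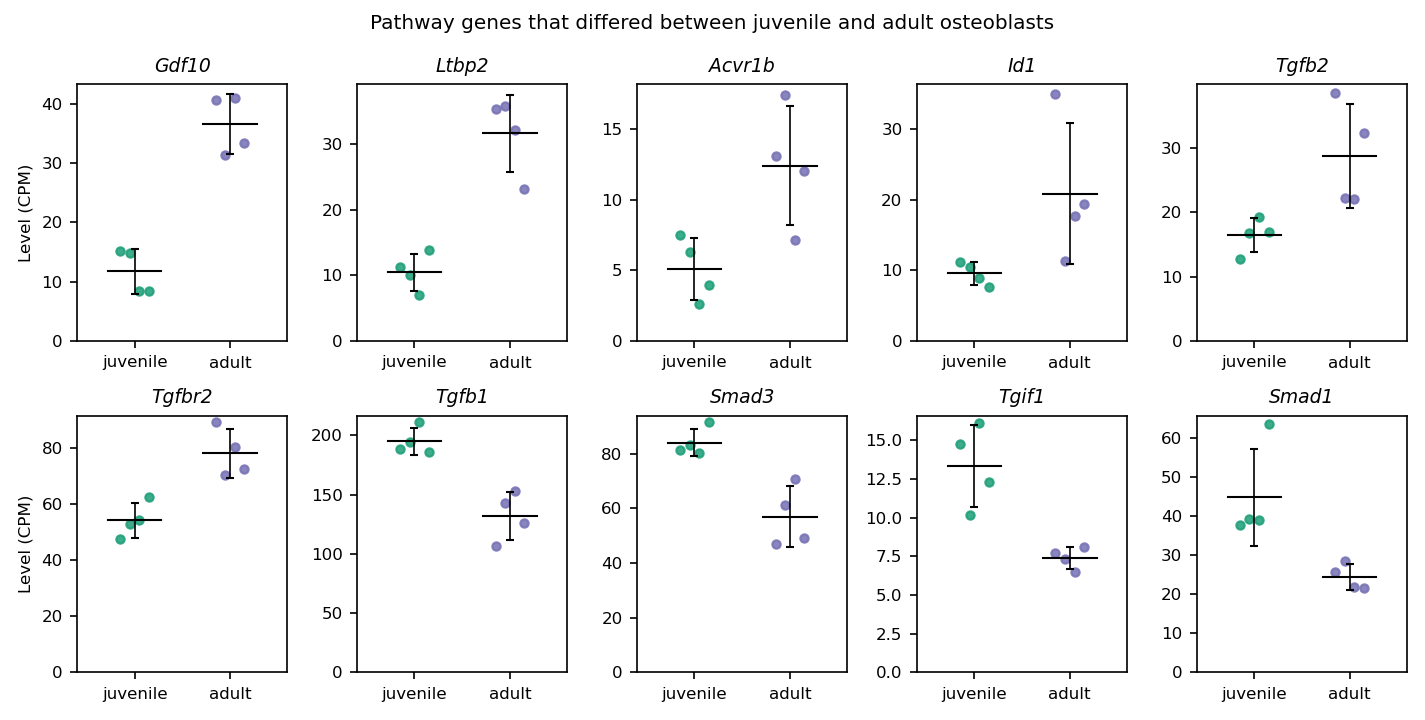
Levels of the 10 pathway genes called between juvenile and adult osteoblasts, in CPM on linear axes that start at 0, with 1 point per library, a horizontal line at the group mean and bars of 1 SD (n = 4 per group). For *Gdf10* every adult library lies at 31.3 CPM or more and every juvenile one at 15.2 CPM or less, while *Acvr1b* has overlapping points and *Id1* a single high adult library at 35.0 CPM.

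The comparison of *c-Myc*-induced with juvenile osteoblasts asks which genes differ once *c-Myc* is induced in *Osx*+ cells. Among the pathway genes, 25 were lower in *c-Myc*-induced osteoblasts and 4 were higher (*Chrdl1*, *Fstl3*, *Tgif1* and *Acvr2b*), where a call needed at least a 2-fold change besides the adjusted p threshold of 0.05. This was 54.7% of the 53 tested, beside 34.4% of all 12588 genes. By direction, 47.2% of the pathway genes were called lower beside 16.0% of all genes, and 7.55% were called higher beside 18.4%. Their median log2 fold change was -0.97, and that of all genes 0.037. When libraries were scaled by their totals alone, the median of all genes moved to 0.87, the called pathway genes became 10 lower and 7 higher, 32.1% of them beside 47.1% of all genes, the reverse order of the shares with TMM factors. By direction this was 18.9% lower beside 5.56% and 13.2% higher beside 41.6%, and the median of the pathway genes remained 0.99 below that of all genes (-0.12 against 0.87).

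By role, the 4 *Id* genes and all 8 extracellular antagonists were called, 6 of these antagonists lower and 2 higher. Of the TGF-beta and activin ligands, 4 of 5 were lower, and of the tested BMP and GDF ligands, 4 of 9, *Gdf5* among them. The intracellular machinery held fewer calls: 3 receptors of 10 were lower and 1 higher, 1 transducing SMAD of 6 was lower, and 2 cell-autonomous inhibitors of 8 were lower and 1 higher. Of the latent TGF-beta binding proteins, 1 of 3 was lower. The 16.7% of transducing SMADs called lower is close to the 16.0% of all genes. Lower calls made up 30.0% of the receptors and 25.0% of the cell-autonomous inhibitors. In either direction, 40.0% of the receptors and 37.5% of these inhibitors were called, near the 34.4% of all genes.

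**Figure D2:**
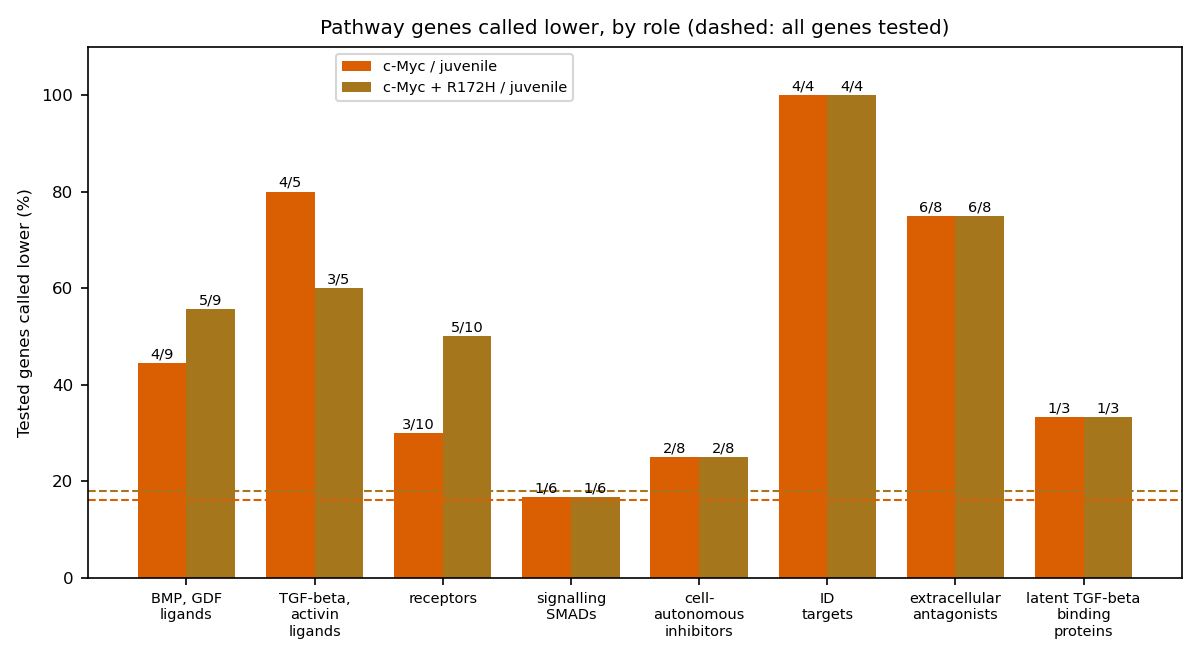
Share of the tested pathway genes of each role called lower than in juvenile osteoblasts (percent, axis from 0), for *c-Myc* and for *c-Myc* + *R172H* libraries, with the count over each bar. *Gdf5*, which passed the filter only through the juvenile libraries, is counted among the BMP and GDF ligands. Dashed lines mark the shares of all tested genes called lower, 16.0% and 17.9%, and both induced groups were compared with the same juvenile libraries. The *Id* genes stand highest, at 4 of 4 in both comparisons, the TGF-beta and activin ligands and the extracellular antagonists follow, and the signalling SMADs lie near the level of all genes.

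The steepest falls were in ligands. *Inhbb*, which encodes the beta-B subunit of activins and inhibins, went from 14.3, 16.0, 12.5 and 11.8 CPM in the juvenile libraries to 0.685 and 0.453 CPM in the *c-Myc* libraries (log2 fold change -4.57 ± 0.37 SE, 23.8-fold lower, adjusted p = 6.98e-07). It was at 0.457 and 0.645 CPM in the *c-Myc* + *R172H* libraries. *Gdf10* stood at 8.34 to 15.2 CPM in juvenile and at 0.822 and 1.7 CPM in *c-Myc* libraries (9.57-fold lower, adjusted p = 5.67e-05). It was at 0.32 and 0.347 CPM with *R172H* in addition, the lowest values of this gene among the 12 libraries. *Bmp3* fell from 186, 189, 159 and 197 CPM to 25.3 and 30.0 CPM (log2 fold change -2.75 ± 0.13 SE, 6.71-fold, adjusted p = 1.87e-08). *Bmp2*, a strongly osteogenic BMP, went from 17.8, 35.7, 22.0 and 25.1 CPM to 5.2 and 4.99 CPM (5.00-fold, adjusted p = 1.94e-05). *Gdf5*, a ligand known from joint formation, had 76 reads over the 4 juvenile libraries and none in the 2 *c-Myc* libraries, at least 13.9-fold lower against a floor of 3 counts per library. For *Gdf5* this is a description and not a test. The other BMP and GDF ligands were not called. *Bmp4* stood at 3.38 to 7.22 CPM in juvenile and at 7.12 and 9.24 CPM in *c-Myc* libraries (adjusted p = 0.159), and *Gdf11* at 14.7 to 29.1 CPM and at 20.0 and 19.3 CPM (adjusted p = 0.683). *Bmp7* passed the p threshold but not the minimum fold (24.7 to 37.4 CPM against 14.9 and 19.0 CPM, log2 fold change -0.97, adjusted p = 0.00157).

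All 3 TGF-beta ligand genes were lower, and none of them was called with library totals as scaling (log2 fold changes of -0.22, -0.66 and -0.50 for *Tgfb1*, *Tgfb2* and *Tgfb3*). *Tgfb1* was at 186 to 211 CPM in juvenile and 91.8 and 98.5 CPM in *c-Myc* libraries (2.08-fold, adjusted p = 1.46e-06), just past the minimum fold, and without *c-Myc* 1 it fell just under that minimum (adjusted p = 1.02e-04). *Tgfb2* was at 12.8 to 19.2 CPM and at 5.52 and 6.23 CPM (2.82-fold, adjusted p = 2.13e-04). *Tgfb3* was at 28.6 to 48.9 CPM and at 14.3 and 17.3 CPM (2.54-fold, adjusted p = 1.33e-04). Without *c-Myc* 1, which leaves 1 *c-Myc* library, the median log2 fold change of the pathway genes was -0.85, and that of all genes 0.008. *Inhba* was not called (6.48 ± 3.36 CPM, SD, n = 4, against 3.61 and 3.34 CPM).

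The promoters of the strongly reduced genes are shown so that they can be compared. RefSeq (GRCm38.p6) gave a window for 38 of the 55 genes, and those printed belong to the 4 genes with the largest called falls among these. Each runs from 250 bases before the annotated start up to it, read 5′ to 3′ on the gene's strand, and overlaps no annotated exon. Capitals mark GGCGCC, a GC-rich SMAD motif.
Inhbb: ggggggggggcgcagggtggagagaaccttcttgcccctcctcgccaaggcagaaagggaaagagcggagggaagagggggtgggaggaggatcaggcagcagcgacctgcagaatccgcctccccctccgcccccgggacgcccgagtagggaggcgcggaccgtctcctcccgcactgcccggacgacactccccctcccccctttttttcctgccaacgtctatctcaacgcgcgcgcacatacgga
Gdf10: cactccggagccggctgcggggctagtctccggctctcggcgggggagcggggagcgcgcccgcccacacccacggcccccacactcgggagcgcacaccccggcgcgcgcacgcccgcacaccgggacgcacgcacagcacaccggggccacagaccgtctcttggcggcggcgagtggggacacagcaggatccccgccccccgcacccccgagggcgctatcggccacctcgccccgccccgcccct
Chrd: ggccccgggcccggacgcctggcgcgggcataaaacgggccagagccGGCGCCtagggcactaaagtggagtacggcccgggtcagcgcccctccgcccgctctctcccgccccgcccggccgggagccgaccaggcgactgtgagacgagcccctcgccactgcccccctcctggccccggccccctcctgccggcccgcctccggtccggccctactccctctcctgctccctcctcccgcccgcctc
Id4: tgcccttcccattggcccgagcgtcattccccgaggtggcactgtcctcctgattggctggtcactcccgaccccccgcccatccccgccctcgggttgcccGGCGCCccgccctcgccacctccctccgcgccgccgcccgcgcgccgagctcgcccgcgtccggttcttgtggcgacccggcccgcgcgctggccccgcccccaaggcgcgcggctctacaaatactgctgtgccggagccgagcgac
They lie at chr1:119422249-119422498 on the minus strand (*Inhbb*), chr14:33923337-33923586 on the plus strand (*Gdf10*), chr16:20732877-20733126 on the plus strand (*Chrd*) and chr13:48260866-48261115 on the plus strand (*Id4*). GGCGCC occurred in 14 of the 38 genes and in 32.7% of their 49 windows, beside 11.9% of all 32851 windows of the same length (300 bases, both strands searched), while the median GC content was 67.0% in the windows of pathway genes and 52.7% in all. The E-box CACGTG, which MYC with its partner MAX can bind, was found in the windows of *Acvr1b*, *Bmp4*, *Bmp6* and *Tgfb2*, 8.16% of the windows beside 7.15% of all. CAGACA, found in TGF-beta response elements, was in 22.4% of them beside 21.0% of all, and the palindromic box GTCTAGAC in that of *Smad6* alone, beside 0.213% of all. A match describes letters and is no evidence of binding.

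Among the receptors, 2 TGF-beta receptor genes were lower and most BMP and activin receptor genes were not called. *Tgfbr2* was at 47.5 to 62.6 CPM in juvenile and at 20.4 and 19.6 CPM in *c-Myc* libraries (2.76-fold lower, adjusted p = 2.77e-06). With library totals *Tgfbr2* was not called (log2 fold change -0.62), nor was *Acvr1* (-0.19). *Tgfbr3* was at 20.2 to 40.9 CPM and at 7.85 and 9.75 CPM (3.85-fold lower, adjusted p = 5.66e-05). The type I receptor *Tgfbr1* (28.2 to 45.2 CPM against 18.8 and 19.6 CPM) did not overlap between the groups but stayed under the minimum fold (log2 fold change -0.88). *Acvr1*, a BMP type I receptor, was 2.05-fold lower (33.1 to 51.6 CPM against 18.5 and 22.3 CPM, adjusted p = 3.64e-04), a call that ended without juvenile 4 or *c-Myc* 1, where the log2 fold change was -0.92 and -0.91. The BMP type II receptor *Bmpr2* was lower under the minimum fold (99.2 to 119 CPM against 63.3 and 77.1 CPM, log2 fold change -0.64, adjusted p = 6.18e-04). *Bmpr1a* stood at 38.5 to 52.6 CPM and at 45.7 and 43.5 CPM, and *Acvr2a* at 8.76 to 10.1 CPM and at 9.91 and 10.5 CPM. The activin type II receptor gene *Acvr2b* was the receptor called higher, from 3.19, 5.16, 5.56 and 3.1 CPM to 7.76 and 9.64 CPM (2.02-fold, adjusted p = 0.0112), and leaving out juvenile 1, juvenile 4 or *c-Myc* 2 ended that call (log2 fold change 0.89, 0.90 and 0.85).

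The SMAD genes differed among themselves. *Smad1* went from 37.7, 39.1, 38.9 and 63.4 CPM to 17.8 and 20.5 CPM (2.37-fold lower, adjusted p = 3.04e-04). The other 2 BMP-side SMADs were not called. *Smad5* was at 47.3 to 65.9 CPM and at 62.0 and 60.8 CPM (adjusted p = 0.637), and *Smad9* at 13.7 to 23.5 CPM and at 13.6 and 12.9 CPM (adjusted p = 0.0646). *Smad3* was lower without reaching the minimum fold (80.3 to 91.5 CPM against 53.1 and 49.4 CPM, log2 fold change -0.74, adjusted p = 6.69e-05). *Smad4* likewise passed the p threshold at a small fold (58.5 to 79.2 CPM against 51.9 and 54.7 CPM, log2 fold change -0.43, adjusted p = 0.0156), and *Smad2* was at 19.5 to 30.8 CPM and at 22.7 and 21.3 CPM (adjusted p = 0.405). Of the 2 inhibitory SMADs, *Smad6*, which acts mainly on BMP receptors, was lower (39.5 to 68.7 CPM against 18.2 and 24.3 CPM, 2.56-fold, adjusted p = 4.53e-04). *Smad7*, which acts on TGF-beta and BMP receptors, was not called (42.2 to 70.4 CPM against 54.5 and 62.6 CPM). The difference between *Smad6* and *Smad7* was not tested. With library totals neither *Smad1* (log2 fold change -0.40) nor *Smad6* (-0.51) was called.

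Of the other cell-autonomous inhibitors, *Bambi*, a pseudoreceptor that lacks the kinase domain, went from 91.4, 114, 159 and 133 CPM to 38.8 and 42.8 CPM (3.08-fold lower, adjusted p = 9.77e-06), and was not called with library totals (log2 fold change -0.77). *Tgif1* rose from 14.8, 10.2, 16.1 and 12.3 CPM to 27.1 and 32.0 CPM (2.18-fold, adjusted p = 2.13e-04). The co-repressor *Skil* passed the p threshold upwards at a smaller fold (33.0 to 62.1 CPM against 77.2 and 83.4 CPM, log2 fold change 0.61, adjusted p = 0.0174). The related *Ski* (88.4 to 108 CPM against 83.6 and 81.4 CPM, log2 fold change -0.27, adjusted p = 0.0391) and the ubiquitin ligase *Smurf1* (18.5 to 27.2 CPM against 17.2 and 15.4 CPM, -0.57, adjusted p = 0.02) passed it downwards, also under the minimum fold. *Smurf2* did not pass (44.4 to 51.9 CPM against 43.0 and 45.7 CPM, adjusted p = 0.249).

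All 4 *Id* genes were lower with *c-Myc*, and none of their *c-Myc* libraries overlapped a juvenile one. *Id1* went from 11.2, 10.5, 8.9 and 7.7 CPM to 2.19 and 3.4 CPM (log2 fold change -1.81 ± 0.33 SE, adjusted p = 5.70e-04). *Id2* went from 6.48, 11.2, 13.2 and 15.1 CPM to 3.88 and 3.97 CPM (-1.56 ± 0.34 SE, adjusted p = 0.00183). *Id3*, the most abundant, went from 176, 236, 242 and 228 CPM to 73.9 and 81.2 CPM (-1.53 ± 0.13 SE, adjusted p = 1.26e-06). In fold these falls of *Id1*, *Id2* and *Id3* were 3.50, 2.96 and 2.88. *Id4* went from 9.86, 8.97, 6.39 and 8.32 CPM to 1.42 and 1.98 CPM (-2.33 ± 0.36 SE, 5.03-fold, adjusted p = 1.54e-04). Scaled by library totals, all 4 still had a lower estimate, *Id1* and *Id4* (log2 fold change -1.52) with a call and *Id2* and *Id3* without one, while the median of all genes was at 0.87.

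Of the extracellular antagonists, 6 fell as well, and *Nog*, *Grem1*, *Fst* and *Fstl1* among them were not called with library totals as scaling. Chordin (*Chrd*), which binds BMPs in the extracellular space, went from 9.13, 9.49, 5.84 and 14.4 CPM to 1.28 and 1.76 CPM (log2 fold change -2.70 ± 0.43 SE, 6.51-fold, adjusted p = 1.79e-04). *Bmper*, a secreted BMP-binding modulator, went from 6.48, 6.39, 6.26 and 7.7 CPM to 1.78 and 1.53 CPM (4.09-fold, adjusted p = 4.90e-04). *Nog*, encoding noggin, went from 8.58, 9.8, 2.78 and 2.61 CPM to 0.822 and 1.98 CPM (4.39-fold, adjusted p = 0.0155). Juvenile 1 and 2 were the high libraries for *Nog*, and the call ended without juvenile 2 (adjusted p = 0.051) or *c-Myc* 1 (adjusted p = 0.156). Gremlin (*Grem1*) went from 4.75, 6.6, 3.06 and 12.5 CPM to 1.14 and 2.32 CPM (3.96-fold, adjusted p = 0.0121), a call that ended without *c-Myc* 1 (adjusted p = 0.137). *Fst*, encoding the activin-binding follistatin, was at 4.75, 7.43, 0.834 and 1.74 CPM and then at 0.73 and 0.51 CPM (6.03-fold, adjusted p = 0.0201). Its juvenile libraries varied widely, and the call ended without juvenile 2, *c-Myc* 1 or *c-Myc* 2 (adjusted p = 0.0654, 0.0906 and 0.131). *Fstl1* was 2.14-fold lower (162 to 194 CPM against 77.6 and 92.7 CPM, adjusted p = 5.75e-06), with a log2 fold change of -0.97 without *c-Myc* 1 that no longer reached the minimum.

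The other 2 antagonists rose. *Chrdl1* went from 5.39, 10.2, 7.92 and 5.34 CPM to 35.2 and 33.5 CPM (log2 fold change 2.23 ± 0.22 SE, 4.69-fold, adjusted p = 3.15e-06). *Fstl3*, which binds activins and myostatin, went from 2.83, 3.4, 3.2 and 2.36 CPM to 8.81 and 11.4 CPM (1.75 ± 0.28 SE, 3.37-fold, adjusted p = 1.73e-04). Both were above every juvenile library in each *c-Myc* library, and both kept their call in all 19 alternatives. Exons of *Fstl3* share 47.3% of their length with *Prss57* on the other strand, and the strand setting of the counting is not stated, so reads of these 2 genes may not be separable. The same holds for *Bmp5* with *Gm26903* (46.7%) and *Gdf5* with *Gm15557* (40.3%), whereas the overlaps found for other pathway genes cover at most 9.34% of their exons. In the matrix-bound class, *Ltbp2* was lower (6.95 to 13.8 CPM against 2.78 and 7.2 CPM, adjusted p = 0.0345) with overlapping ranges, and lost its call without juvenile 1, 2 or 4 or *c-Myc* 1 (adjusted p = 0.0667, 0.058, 0.0593 and 0.352) and with library totals (0.539). *Ltbp3*, a carrier of latent TGF-beta, was at 154 to 198 CPM and at 103 and 105 CPM, under the minimum fold.

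**Figure D3:**
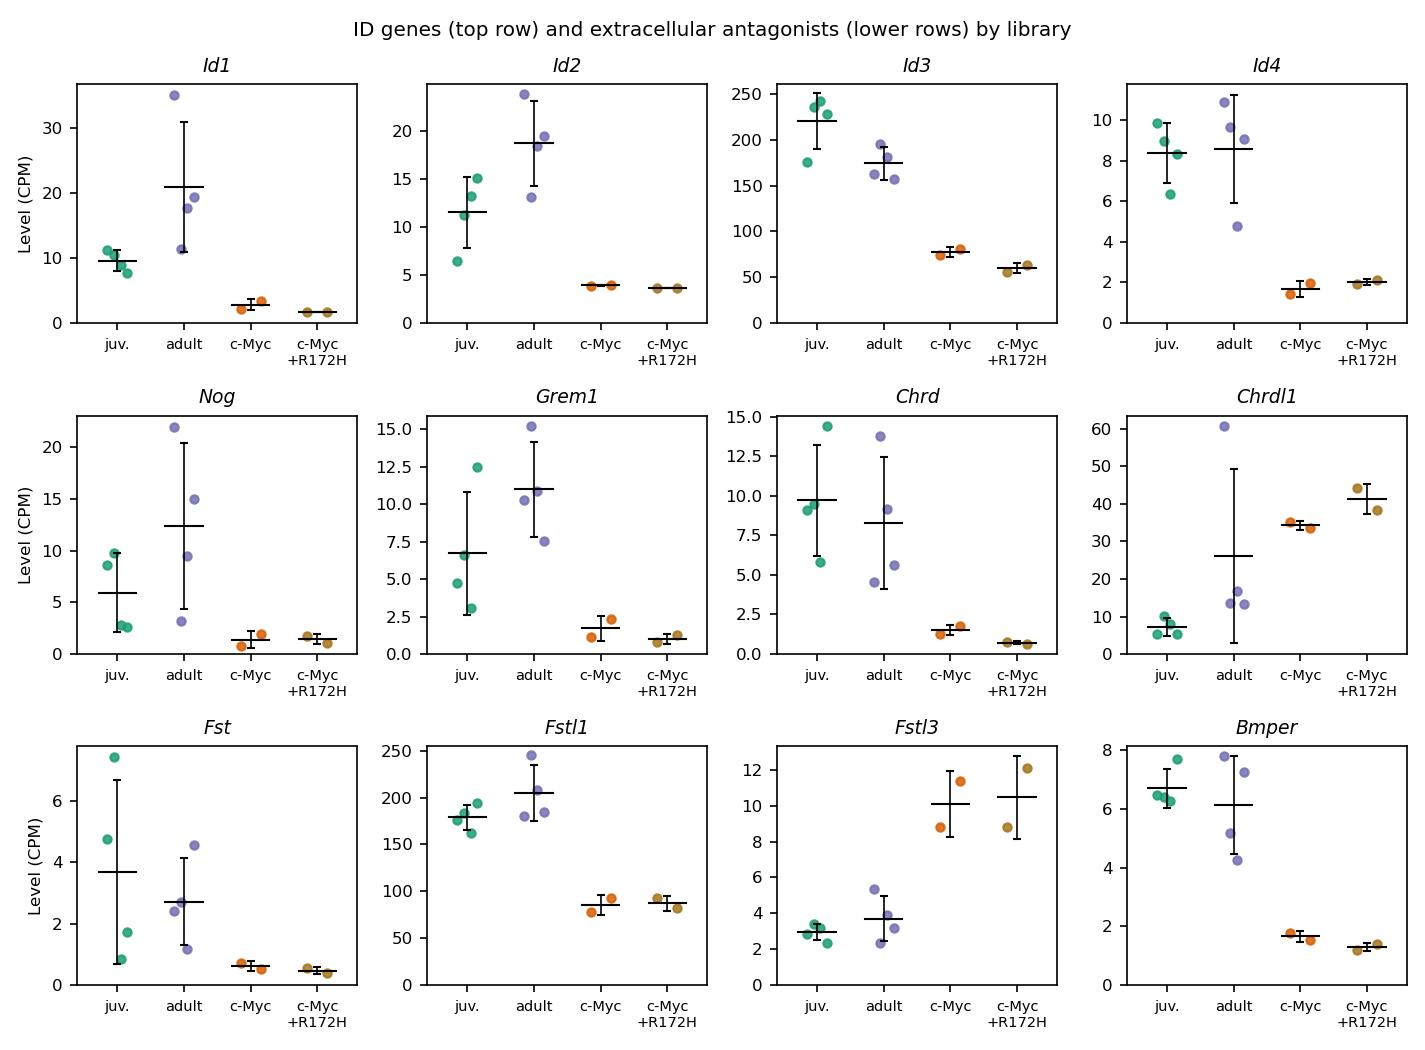
Levels of the 4 *Id* genes (top row) and the 8 extracellular antagonists in every library, in CPM on linear axes that start at 0, with a line at the group mean and bars of 1 SD (n = 4, 4, 2 and 2). In both induced groups the *Id* genes and 6 antagonists lie under the juvenile libraries, whereas *Chrdl1* and *Fstl3* lie above them.

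Other genes moved in the same comparison. All 16 chondrocyte markers and 10 of 12 osteoblast markers were called lower, beside 16.0% of all genes. All 6 proliferation markers were called higher, beside 18.4% of all genes. The sum of these 6 was 80.5 to 112 CPM in juvenile and 470 and 500 CPM in *c-Myc* libraries. The osteoblast markers not called were *Sp7* and *Runx2*, lower under the minimum fold (log2 fold change -0.81 and -0.71). The 3 most abundant transcripts (*Col1a1*, *Col1a2* and *Gm26917*) took 57.1% to 65.3% of juvenile reads and 41.8% to 46.1% of *c-Myc* reads. Without these 3 transcripts, 25 pathway genes were called lower and 4 higher, with 34.1% of all genes called in either direction. The part of the cell markers in the pathway differences was not tested.

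The comparison of *c-Myc* + *R172H* with *c-Myc* osteoblasts asks what the dominant-negative *Trp53* allele adds. In *c-Myc* + *R172H* against *c-Myc* osteoblasts, 1 of 53 genes was called lower and 0 were called higher by edgeR's quasi-likelihood test at an adjusted p below 0.05. That is 1.89% of the pathway genes, beside 0.469% of all 12588 genes in either direction, 0.461% lower and 0.00794% higher. The gene was *Bmp3*, at 25.3 and 30.0 CPM with *c-Myc* alone and at 14.5 and 15.7 CPM with *R172H* in addition (log2 fold change -0.84 ± 0.14 SE, 1.79-fold lower, adjusted p = 0.0218). Both *c-Myc* + *R172H* libraries lay below both *c-Myc* libraries. The call ended without *c-Myc* 2 (log2 fold change -0.74) or without *c-Myc* + *R172H* 1 or 2 (-0.81 and -0.93). It also ended without juvenile 2 (-0.84, adjusted p = 0.0743 by the same test). Juvenile 2 is in neither group compared and enters through the filter, the scaling and the shared estimate of spread. The osteoblast and chondrocyte marker sums were also lower in the *c-Myc* + *R172H* libraries, as given above, and their part in the result was not tested.

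At an unadjusted p below 0.05 by edgeR, *Bmp3*, *Gdf10*, *Tgfb3*, *Bambi*, *Id3* and *Ltbp2* were lower with *R172H* and *Bmpr1a* was higher. No share of all genes is given at that threshold, so the number of these genes is not read as a result. DESeq2 called 2 lower (*Bmp3* and *Ltbp2*) and 0 higher, beside 1.65% of all genes. A fit of these 4 libraries alone called 5 of 52 lower (*Bmp3*, *Ltbp2*, *Id3*, *Tgfb3* and *Bambi*) and 2 higher (*Bmpr1a* and *Tgif1*). That fit also called more of all genes, 5.17% of 12170 in place of 0.469%. *Ltbp2* was at 2.78 and 7.2 CPM with *c-Myc* and at 1.28 and 0.992 CPM with *R172H* in addition (log2 fold change -2.09 ± 0.49 SE, adjusted p = 0.123). *Gdf10* was at 0.822 and 1.7 CPM and at 0.32 and 0.347 CPM (-1.84 ± 0.58 SE, adjusted p = 0.386). The libraries of the 2 groups did not overlap for either gene, but neither difference passed the test in the fit with the juvenile libraries. *Ltbp2* was also called with no filter on low counts and without *c-Myc* 1. *Id3* was at 73.9 and 81.2 CPM and at 56.2 and 63.6 CPM (-0.34 ± 0.14 SE, adjusted p = 0.897), and *Bmpr1a* at 45.7 and 43.5 CPM and at 58.7 and 55.5 CPM (0.39 ± 0.15 SE, adjusted p = 0.776). With 2 libraries a group, a p above the threshold does not show that these genes were alike.

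Against juvenile osteoblasts, *c-Myc* + *R172H* osteoblasts had 27 pathway genes called lower and 4 higher, 58.5% of 53 beside 37.5% of all genes. The lower calls made up 50.9% beside 17.9% of all genes, and the higher calls 7.55% beside 19.6%. The median log2 fold change was -1.03, and that of all genes 0.076. The juvenile libraries are the same as in the *c-Myc* comparison, so the 2 sets of calls are not independent. *Acvr2b*, *Tgif1*, *Chrdl1* and *Fstl3* were the genes called higher. With library totals as scaling, 13 were lower and 11 higher, 45.3% beside 56.7% of all genes (24.5% lower beside 6.9%, 20.8% higher beside 49.8%), with the median of all genes at 1.12.

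*Gdf10* was 34.4-fold lower than in juvenile osteoblasts (log2 fold change -5.10 ± 0.53 SE, adjusted p = 4.35e-06) and on the same scale *Bmp3* stood at -3.59 ± 0.14 SE (adjusted p = 3.34e-09). *Inhbb* was 24.4-fold lower (adjusted p = 5.26e-07). *Gdf5* had 1 read over both libraries and a ratio to juvenile of 88.9 (95% counting interval 15.5 to 3559), again a description and not a test. Among the antagonists, *Chrd* was at 0.778 and 0.645 CPM (13.4-fold lower, adjusted p = 2.11e-05), *Grem1* at 0.778 and 1.24 CPM (6.60-fold lower, adjusted p = 0.00229) and *Bmper* at 1.19 and 1.39 CPM (5.15-fold lower, adjusted p = 1.65e-04). *Chrdl1* was at 44.2 and 38.5 CPM (5.76-fold higher, adjusted p = 8.64e-07) and *Fstl3* at 8.83 and 12.1 CPM (3.55-fold higher, adjusted p = 1.07e-04). The *Id* genes were again under every juvenile library, with *Id1* at 1.69 and 1.64 CPM (5.72-fold lower), *Id2* at 3.66 and 3.67 CPM (3.10-fold), *Id3* at 56.2 and 63.6 CPM (3.65-fold) and *Id4* at 1.92 and 2.13 CPM (4.12-fold). *Acvrl1*, an endothelial-type TGF-beta family receptor present at 1.61 to 5.28 CPM in juvenile libraries, was at 0.229 and 0.397 CPM (8.37-fold lower, adjusted p = 0.00466), and without *c-Myc* + *R172H* 1 it was no longer called (adjusted p = 0.0678). *Nog* and *Fst* were called here too (adjusted p = 0.017 and 0.0111), and both lost the call without either *c-Myc* + *R172H* library (*Nog*, 0.0519 and 0.126, and *Fst*, 0.0587 and 0.0851), *Nog* also without juvenile 2 (0.0551). *Tgfb1* was at 96.8 and 101 CPM and fell just short of the minimum fold (log2 fold change -0.97). *Tgfbr1* (15.8 and 17.4 CPM, -1.06) and *Fstl1* (92.8 and 81.8 CPM, -1.03) lay just past it, and *Tgfbr1* dropped below it without juvenile 3 (-0.93) and *Fstl1* without juvenile 4 (-0.99) or *c-Myc* + *R172H* 2 (-0.97).

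**Figure D4:**
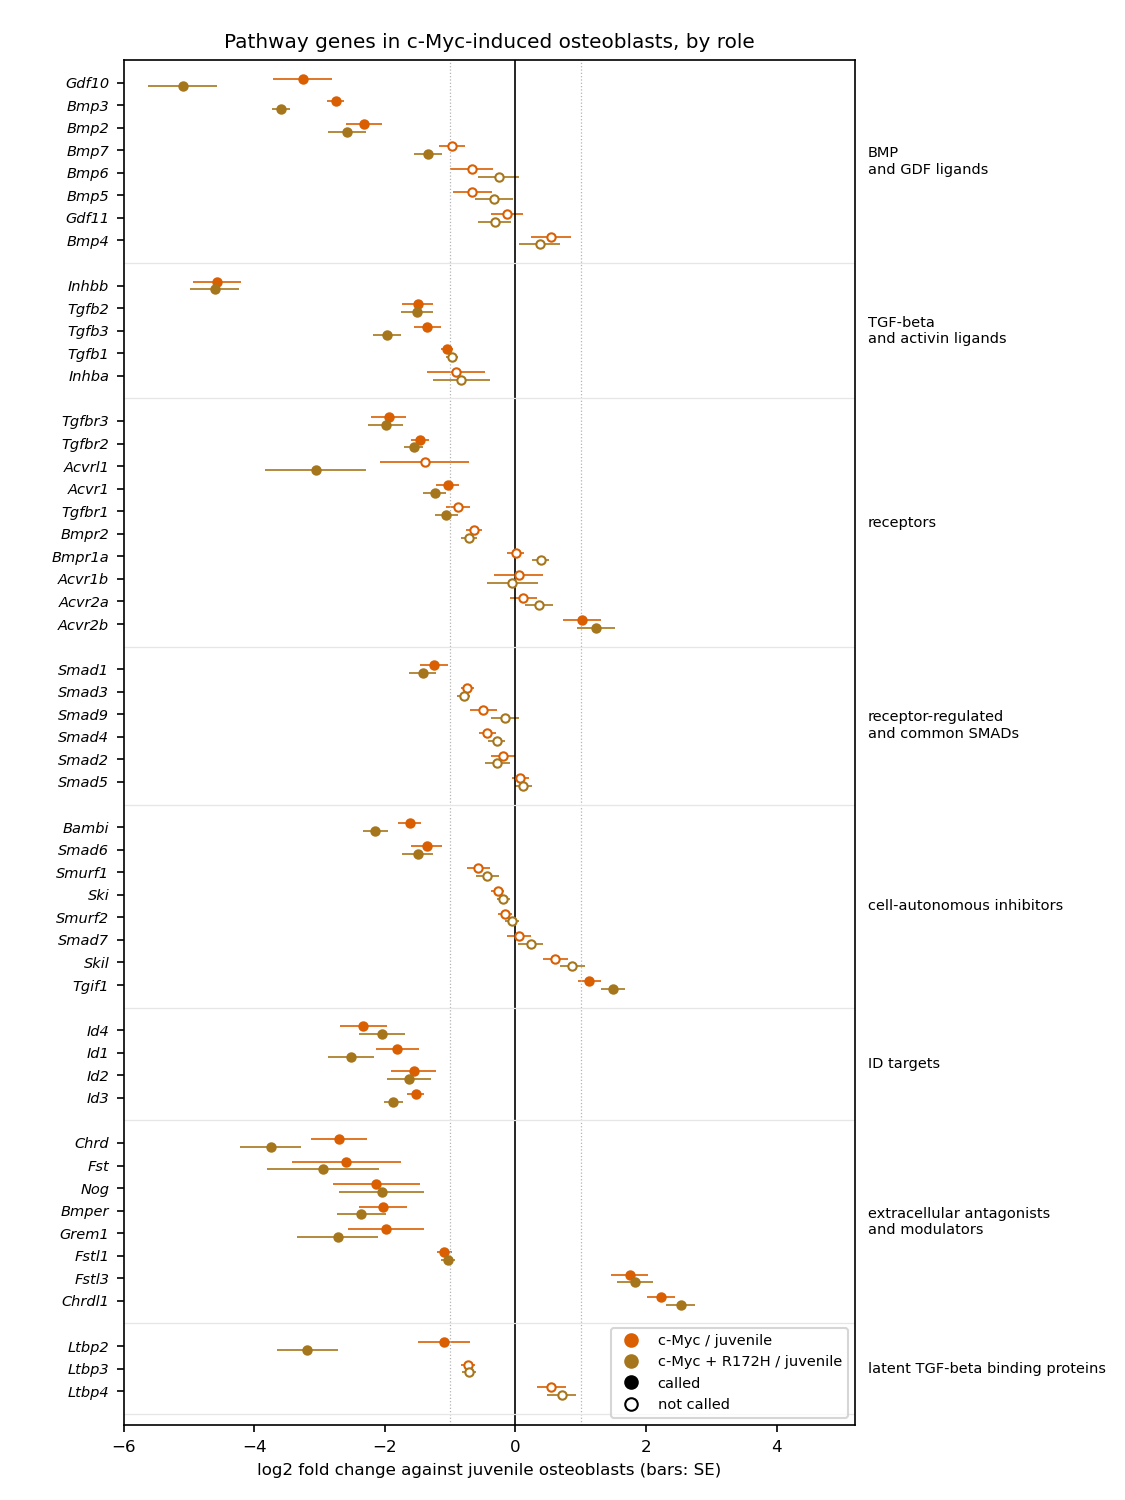
Log2 fold change against juvenile osteoblasts of 52 pathway genes in *c-Myc* and *c-Myc* + *R172H* osteoblasts, grouped by role, with bars of 1 SE, filled points for called genes and dotted lines at a log2 fold change of -1 and 1. *Gdf5* is left out because the *c-Myc* libraries held none of its reads. Most points of the TGF-beta and activin ligands, *Id* genes and antagonists lie left of -1. The BMP and GDF ligands lie on either side of -1, and most SMADs and cell-autonomous inhibitors between the dotted lines.

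The wider pathway was read from a list of 87 further genes: other ligands, co-receptors, enzymes and integrins that process or release ligand, other antagonists, intracellular regulators and known targets. Between juvenile and adult osteoblasts, 2 of its 56 tested genes were called higher in juvenile and 6 lower, 14.3% beside 5.12% of all genes. The ligand *Bmp8a* (22.5 against 11.1 CPM on average) and the procollagen C-proteinase *Bmp1* (1348 against 901 CPM) were higher. *Rgma*, a BMP co-receptor, was lower (3.13 against 11.1 CPM, log2 fold change -1.83 ± 0.43 SE, adjusted p = 0.0228), as was the TGF-beta target *Ccn2* (148 against 450 CPM, -1.61 ± 0.35 SE, adjusted p = 0.0407). *Twsg1*, a BMP-binding partner of chordin, and *Thbs1*, which can activate latent TGF-beta, were lower by log2 fold changes of -0.94 and -0.84.

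With *c-Myc*, 24 of 59 tested genes of the wider list were lower than in juvenile osteoblasts and 6 higher, 50.8% beside 34.4% of all genes. Of the genes of ligand processing and activation, 10 of 12 were called lower by edgeR, and all 12 had a lower estimate. Of the intracellular regulators, 2 of 18 were lower and 2 higher. *Tgfbi*, a TGF-beta-induced matrix protein, went from 42.9 to 2.53 CPM on average (log2 fold change -4.11 ± 0.30 SE). The BMP antagonist *Nbl1* went from 53.8 to 5.82 CPM (-3.24 ± 0.29 SE). *Dcn* and *Bgn*, proteoglycans that bind TGF-beta, went from 471 to 64.4 CPM and from 1978 to 321 CPM. *Tgif2*, the closest relative of *Tgif1*, rose from 3.23 to 23.0 CPM (2.77 ± 0.27 SE, adjusted p = 3.47e-06). Of the 6 called higher, *Amh*, *Cer1* and *Msx2* would not have passed the filter on low counts without the induced libraries, where they were higher, so their calls carry no weight as a test. *Amh*, which encodes anti-Müllerian hormone, had no read in the juvenile libraries and averaged 1.24 CPM with *c-Myc*. *Cer1*, a secreted BMP and nodal antagonist, averaged 0.205 and 1.9 CPM, and the BMP target *Msx2* 1.15 and 4.03 CPM. With *R172H* in addition to *c-Myc*, 4 of 59 genes (6.78%, beside 0.469% of all) were lower and 0 higher by edgeR. They were *Dcn* (64.4 to 20.5 CPM, -1.62 ± 0.23 SE, adjusted p = 0.00974), *Fbn2* (-1.31), *Bgn* (-1.12) and *Thbs1* (-1.09). Against juvenile osteoblasts, the *c-Myc* + *R172H* group had 25 of 59 genes lower (42.4% beside 17.9% of all genes) and 5 higher (8.47% beside 19.6%), the latter again including *Amh*, *Cer1* and *Msx2*.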

How the data were processed

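Bulk RNA-seq of 12 libraries was analysed. The authors trimmed reads with cutadapt 4.6, aligned them with STAR 2.7.11a to mm10 and deposited raw gene counts made with HTSeq-count 2.0.5. The kit was directional, and the strand setting is not given in the sources used here. Groups came from the sample titles. Genes were tested with edgeR 4.0.16 in R 4.3.3 (quasi-likelihood F-test, TMM factors, filterByExpr, robust dispersion, Benjamini-Hochberg adjustment over all genes tested). The 8 control libraries entered the age fit, and the induced libraries were fitted together with the juvenile ones. A call needed an adjusted p below 0.05 and, against juvenile osteoblasts in the induced comparisons, an absolute log2 fold change from 1 upwards. SE was the absolute log2 fold change over the root of F, an approximation. CPM values used TMM factors over all 12 libraries. Fold changes used each fit's own factors. DESeq2 1.42.0, other scalings and filters, and leaving out each library were alternatives. Counting intervals and the floor of 3 counts cover counting error only, and reads without molecular identifiers are not independent molecules. Library totals (9066154 to 15684412 reads) limit the precision of genes of a few CPM. Control libraries were pools of 2 mice. Nothing says how the 2 libraries of each induced group were pooled, so p-values measure the spread between libraries. Pathway genes and lists were chosen with earlier results of these data known. Every pathway gene could be named, with values in every library for up to 12 called genes a comparison by absolute log2 fold change. Of the wider list, up to 4 called genes in each direction were named.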

Additional observations from a re-analysis of the deposited data

Results flagged for a closer look

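A gap test within the groups of 4 libraries (gap of the extreme library to its neighbour over the group's range, Dixon's criterion) was run on 34 pathway genes called in any comparison, which gave 68 groups, of which 5 passed. Chance alone passes about 1 in 20 groups. *Chrdl1* stood at 60.7 CPM in adult 1 beside 13.3 to 16.7 CPM in the other adult libraries. *Smad1* stood at 63.4 CPM in juvenile 4 beside 37.7 to 39.1 CPM. *Acvrl1* stood at 5.28 CPM in juvenile 3 beside 1.61 to 2.01 CPM. *Bmper* stood at 7.7 CPM in juvenile 4 beside 6.26 to 6.48 CPM. *Tgfb3* stood at 50.3 CPM in adult 3 beside 33.6 to 36.3 CPM.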

How the results depend on the processing

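With scaling by library totals, calls became 1 higher and 11 lower by age, 7 and 10 with *c-Myc*, 0 lower for *R172H* added to *c-Myc*, and 11 and 13 for *c-Myc* + *R172H* against juvenile, where *Fstl1* reversed to a log2 fold change of 0.016. It ended 15 of the 29 *c-Myc* calls and 14 of the 31 *c-Myc* + *R172H* calls. For *R172H* added to *c-Myc*, called lower were 2 with no filter, 2 with DESeq2, 0 with all 12 libraries in the fit, and 5 with only the groups compared (2 higher). Of all genes, 1.17%, 1.65%, 0.169% and 5.17% were called in the same order. The median of the pathway genes minus that of all genes was -0.80 with *c-Myc* when every library needed 10 counts, and for *c-Myc* + *R172H* against juvenile it was -1.19 with no filter, -0.82 at 10 counts and -1.08 with all 12 libraries. With no minimum fold change, 7 pathway genes were called higher and 31 lower there, 38 of 53 tested, beside 56.7% of all genes. Leaving out 1 library gave 1 to 4 higher and 2 to 5 lower calls by age, 0 to 2 lower for *R172H* added to *c-Myc*, and median differences of -1.12 to -0.86 with *c-Myc*, -0.09 to 0.039 for *R172H* added to *c-Myc* and -1.14 to -1.02 for *c-Myc* + *R172H* against juvenile. Except where the alternative itself has fewer libraries or genes, the cause was not tested.

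Replicate numbers are shared between groups, but the labels do not say that they pair libraries: deviations of same-numbered libraries correlated at -0.0793 to 0.0561 with the juvenile group, and at 0.174 between the 2 pairs of induced libraries, in which *Xist* was high in both libraries numbered 2. With the replicate block, calls were 3 higher and 5 lower by age, 4 and 24 with *c-Myc* and 5 lower for *R172H* added to *c-Myc* (*Bmp3*, *Ltbp2*, *Id3*, *Tgfb3* and *Bambi*), and the median difference was -0.87 with *c-Myc* and -1.08 for *c-Myc* + *R172H* against juvenile. Of all genes, the block called 3.83% by age, 36.0% with *c-Myc* and 2.59% for *R172H* added to *c-Myc*. Chi-square per degree of freedom between replicates of a group was 5.45 to 136, so libraries of a group differed by more than counting error.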
